A study of Homo sapiens with 6 samples.

Results

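The EGR, NR4A and IER genes are immediate early genes, which cells switch on from factors already present, before any new protein has to be made. The count table held all 9 of the genes taken here, out of 65746 symbols. They are EGR1, EGR2 and EGR3, the nuclear receptor genes NR4A1, NR4A2 and NR4A3, and IER2, IER3 and IER5. They were chosen by name, as rows of the count table with these symbols. Earlier results of these data were known when the members and the gene lists below were chosen. RNA sequencing had been done on the human cell line SU-DHL-8, derived from a diffuse large B-cell lymphoma and labelled wild type, grown in RPMI 1640 with serum. One group of 3 libraries came from cells given erianin at 100 nM for 24 h. The other 3 libraries came from cells given DMSO, the solvent, for the same 24 h. Erianin is a bibenzyl from Dendrobium orchids that is known to bind tubulin. The labels number the replicates but do not say that they are separate cultures, so the p-values reflect only how far these libraries scatter, and that scatter may be technical. A single cell line and a single dose and time limit what the comparison covers.

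Immediate early genes respond within minutes to growth factors, antigen receptors, calcium and cell stress, and their mRNAs are usually short-lived. Serum response factor (SRF), bound to CArG boxes with partner proteins that ERK kinases phosphorylate, and CREB, bound to cyclic AMP response elements, are their best-known activators. In B cells, EGR and NR4A genes are known as rapid targets of the B-cell receptor. EGR proteins are zinc finger transcription factors. NR4A proteins are orphan nuclear receptors that act without a known natural ligand. IER2 and IER5 are related proteins, whereas IER3 shares with them only the name and the early mode of induction.

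Promoter windows from RefSeq (GRCh38.p14) ran from 250 bases before to 50 bases after an annotated start. They were searched for 6 of the 9 members, in 9 windows. EGR3, NR4A2 and IER3 were not searched, so nothing is said here of their promoters. For EGR3 this does not mean that RefSeq lacks a window. Shown here are 5 of the 9 windows, because they hold letters that match known SRF, CREB or heat shock elements. For EGR2, which had 3 windows, the one with a CArG box is shown. They read 5′ to 3′ on the gene's strand, and capitals mark CArG boxes, the CRE core TGACG on either strand and the heat shock unit GAANNTTC. The windows are chr5:138465229-138465528 (plus strand) for EGR1, chr10:62816317-62816616 (minus) for EGR2, chr9:99821635-99821934 (plus) for NR4A3, chr19:13150161-13150460 (plus) for IER2 and chr1:181088450-181088749 (plus) for IER5.
EGR1: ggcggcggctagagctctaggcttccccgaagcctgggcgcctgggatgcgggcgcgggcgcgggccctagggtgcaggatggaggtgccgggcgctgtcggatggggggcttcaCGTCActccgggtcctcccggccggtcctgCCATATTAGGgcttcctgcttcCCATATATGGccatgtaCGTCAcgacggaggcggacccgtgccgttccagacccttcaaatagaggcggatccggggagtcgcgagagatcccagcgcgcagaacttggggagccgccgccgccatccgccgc
EGR2: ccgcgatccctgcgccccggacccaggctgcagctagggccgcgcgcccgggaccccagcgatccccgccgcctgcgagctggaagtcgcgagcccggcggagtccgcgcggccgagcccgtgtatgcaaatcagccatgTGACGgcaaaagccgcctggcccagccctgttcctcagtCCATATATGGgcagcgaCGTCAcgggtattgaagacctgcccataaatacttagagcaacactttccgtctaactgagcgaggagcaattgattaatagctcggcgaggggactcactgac
NR4A3: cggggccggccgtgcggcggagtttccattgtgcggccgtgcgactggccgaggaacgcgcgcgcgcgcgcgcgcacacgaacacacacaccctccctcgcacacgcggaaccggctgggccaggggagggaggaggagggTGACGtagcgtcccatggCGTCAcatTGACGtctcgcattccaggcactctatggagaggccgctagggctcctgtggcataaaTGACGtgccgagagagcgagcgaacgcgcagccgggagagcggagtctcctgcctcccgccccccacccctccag
IER2: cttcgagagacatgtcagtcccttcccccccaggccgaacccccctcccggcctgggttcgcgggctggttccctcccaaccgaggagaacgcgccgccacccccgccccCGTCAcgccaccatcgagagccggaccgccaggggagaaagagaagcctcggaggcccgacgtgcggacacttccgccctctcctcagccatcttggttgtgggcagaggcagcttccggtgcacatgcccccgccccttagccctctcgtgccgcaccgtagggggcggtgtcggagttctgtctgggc
IER5: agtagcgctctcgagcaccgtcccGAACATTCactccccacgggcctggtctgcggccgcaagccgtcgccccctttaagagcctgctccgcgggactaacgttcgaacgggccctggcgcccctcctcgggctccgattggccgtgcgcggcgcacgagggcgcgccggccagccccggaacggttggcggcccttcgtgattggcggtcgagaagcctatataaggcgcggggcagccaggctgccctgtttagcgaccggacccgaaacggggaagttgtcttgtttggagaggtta

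The EGR1 window held 2 CArG boxes, beginning 105 and 83 bases before the start, and a CRE core on each side of them, at 135 and 66 bases. The EGR2 window held 1 CArG box at 71 bases and CRE cores at 110 and 54 bases. NR4A3 had no CArG box in its window but 4 CRE cores, at 109, 91, 83 and 25 bases. IER2 had 1 CRE core at 140 bases, and IER5 had 1 heat shock unit at 226 bases. Neither of the 2 NR4A1 windows held a match to these 3 elements. Over 35116 promoter windows of the same length, 1.29% held a CArG box, 24.6% the CRE core and 6.77% the heat shock unit, on either strand. The core is part of the full CRE, TGACGTCA, which 1.85% of windows held. A match is a description of letters and not a bound site.

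The libraries held 30956443 to 35588728 counts each. A count of 3, used as the floor for counting error, equals 0.084 to 0.097 CPM (counts over library size, here with edgeR's TMM scaling). Of the 6 libraries, DMSO replicate 1 was unlike the rest. Pairs of erianin libraries had a biological coefficient of variation of 0.0336 to 0.0815. Among DMSO pairs it came to 0.0381 for replicates 2 and 3, and to 0.291 and 0.294 for the pairs that include replicate 1. Across 11404 annotated genes, the log2 ratio of DMSO replicate 1 to the mean of DMSO replicates 2 and 3 had a Spearman rho of -0.52 with transcript GC content and 0.308 with exonic length, as a description across genes that are not independent. The tests of members, the counts of each list and the fold changes of called genes are therefore given with and without that library. Of the B-cell markers, all 9 were detected, with a summed level of 2369 to 2646 CPM in erianin libraries and 2878 to 3855 CPM in DMSO libraries. The 5 T-cell markers, of which CD3G and CD2 were at 0 in all 6 libraries, summed to 1.37 to 2.17 CPM with erianin and 2.97 to 3.75 CPM with DMSO. Nearly all of this was TRAC, with 1.31, 2.17 and 1.92 CPM in erianin replicates 1 to 3. In DMSO replicates 1 to 3 TRAC had 3.75, 3.42 and 2.97 CPM. The 4 myeloid markers, none at 0 throughout and LYZ the most abundant, summed to 9.36 to 10.6 CPM with erianin and 4.30 to 7.27 CPM with DMSO, and their part in the results was not tested. In bulk RNA, fewer cells of a state and less RNA per cell cannot be told apart.

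Erianin was compared with DMSO to find transcripts that the compound changes. Of the 9 members, 7 rose in erianin-treated cells, which were EGR2, EGR3, NR4A1, NR4A3, IER2, IER3 and IER5. Called means an adjusted p below 0.05 in edgeR's quasi-likelihood test, adjusted over all genes tested. Over all 11550 genes tested, 11.8% were called higher and 12.3% lower. EGR1 missed the threshold with all 6 libraries, passed it in 10 of 19 alternative fits, and rose without DMSO replicate 1, when 8 of 9 members were called higher, against 27.8% of 11773 genes called higher and 27.4% lower. NR4A2 was not called in either fit. No member was called lower by edgeR, by edgeR at an unadjusted p below 0.05, by DESeq2 or by limma-voom with quality weights. In 8 of the 9 members every erianin library lay above every DMSO library, which held for 23.6% of all genes tested. The members had a median log2 fold change of 1.44, and 1.57 without DMSO replicate 1, against 0 and 0.03 for all genes tested. EGR3 passed the filter on low counts through its erianin libraries, since only 1 of its DMSO libraries was above the filter's level of 0.293 CPM. Another scaling moved the balance of calls over all genes, with 1368 higher and 1423 lower by TMM, 1763 and 1093 by upper-quartile scaling and 1840 and 918 by total counts alone, but the 7 calls of members held under each of these. The median of all genes shifted by 0.106 on the log2 scale with total counts alone, and by 0.202 and 0.277 on log2(TPM + 1) and log2(TPM + 0.1), where limma called 1408 and 1263 genes higher and 262 and 245 lower.

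**Figure D1:**
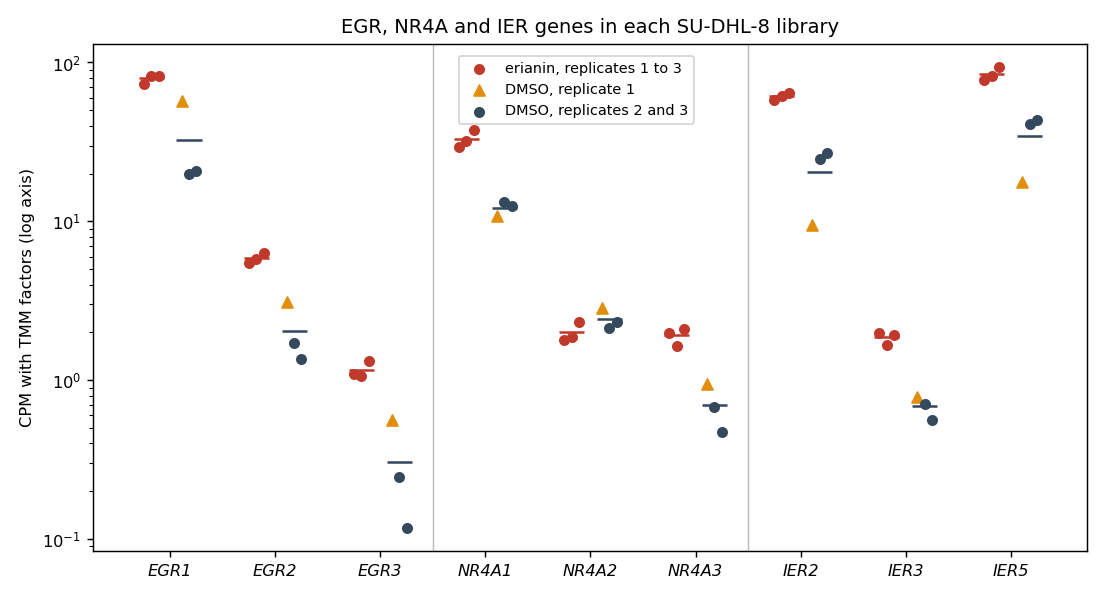
Level of each member in each library, as CPM with TMM factors on a log axis. Circles on the left of each gene are erianin replicates 1 to 3, the triangle is DMSO replicate 1, the circles on the right are DMSO replicates 2 and 3, and bars are group means (n = 3). EGR1 in DMSO replicate 1 (57.3 CPM) lies near the erianin libraries, while IER2 and IER5 in that library lie below all others.

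EGR1 encodes the founding EGR zinc finger factor, on chromosome 5 (138465490 to 138469315, plus strand, GRCh38, ENSG00000120738). Its level was 73.2, 82.3 and 82.4 CPM in erianin replicates 1, 2 and 3, against 57.3, 19.97 and 20.8 CPM in DMSO replicates 1, 2 and 3. The groups did not overlap, and the DMSO libraries split, with replicate 1 nearly as high as the erianin libraries. EGR1 averaged 79.3 ± 5.30 CPM with erianin and 32.7 ± 21.3 CPM with DMSO (SD, n = 3 each). Its log2 fold change was 1.28 ± 0.40 (SE), with an adjusted p of 0.053 by edgeR. Without DMSO replicate 1 it was 1.97 ± 0.08, with an adjusted p of 1.3e-15 by edgeR, and EGR1 rose. Against DMSO replicate 1 alone, the erianin mean was higher by 0.47 on the log2 scale.

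EGR2, on chromosome 10 (62811996 to 62919900, minus strand), encodes a paralog best known for myelination and for restraining lymphocyte activation. It had 5.46, 5.84 and 6.32 CPM in erianin replicates 1 to 3, against 3.09, 1.73 and 1.35 CPM in DMSO replicates 1 to 3. All erianin libraries were higher, and DMSO replicate 1 was again the highest of its group. This gave a log2 fold change of 1.52 ± 0.29 (edgeR adjusted p = 0.012), and 1.94 ± 0.19 without DMSO replicate 1. Its call ended without any 1 erianin library (adjusted p = 0.051 to 0.059 by edgeR), with log2 fold changes of 1.46 to 1.58.

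EGR3, on chromosome 8 (22687659 to 22693302, minus strand), is a known companion of EGR2 in lymphocytes. It was rare, with 40, 37 and 46 raw counts in erianin replicates 1 to 3, against 17, 8 and 4 in DMSO replicates 1 to 3. In CPM this was 1.09, 1.07 and 1.32 with erianin, against 0.559, 0.247 and 0.118 with DMSO, the last close to the floor of 3 counts. The order of the DMSO libraries was that of EGR2, with replicate 1 highest and replicate 3 lowest. The log2 fold change was 1.93 ± 0.46 (edgeR adjusted p = 0.023), and 2.67 ± 0.45 without DMSO replicate 1 (adjusted p = 1.6e-05 by edgeR). EGR3 was not called without any 1 erianin library or without DMSO replicate 2 (adjusted p = 0.066 to 0.090 by edgeR).

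All 3 EGR genes thus had their highest DMSO value in replicate 1, by 1.49, 1.0 and 1.62 on the log2 scale over the mean of the other DMSO libraries for EGR1, EGR2 and EGR3. Over all genes tested, the middle 90% of this ratio ran from -1.21 to 0.88. EGR1 made up most of the family's reads, with 91.5% to 92.3% in erianin libraries and 91.0% to 94.0% in DMSO libraries. EGR4, the remaining family gene, was listed at 0 in all 6 libraries. The corepressor gene NAB2, whose protein binds EGR factors and whose transcription they are known to raise, rose too. NAB2 averaged 83.6 ± 5.94 CPM with erianin and 33.1 ± 12.3 CPM with DMSO (log2 fold change 1.33 ± 0.27, edgeR adjusted p = 0.014, and 1.07 ± 0.08 without DMSO replicate 1). NAB2 was not called without any 1 erianin library (adjusted p up to 0.068 by edgeR) or on either log2 TPM scale. Its paralog NAB1 had 14.1 ± 0.613 CPM with erianin and 14.8 ± 1.53 CPM with DMSO (edgeR adjusted p = 0.68).

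NR4A1, also known as NUR77, lies on chromosome 12 (52022832 to 52059507, plus strand) and is the NR4A gene most used as a reporter of antigen receptor signalling in mouse lymphocytes. It had 29.5, 32.1 and 37.4 CPM in erianin replicates 1 to 3, against 10.8, 13.2 and 12.4 CPM in DMSO replicates 1 to 3. The groups were far apart and DMSO replicate 1 lay close to the others. NR4A1 averaged 33.0 ± 4.04 CPM with erianin and 12.1 ± 1.25 CPM with DMSO (SD, n = 3 each). Its log2 fold change was 1.44 ± 0.14 (edgeR adjusted p = 0.0016) and 1.38 ± 0.10 without DMSO replicate 1. NR4A1 was called in all 19 alternative fits, with log2 fold changes of 1.26 to 1.65.

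NR4A2, also known as NURR1 and best known for dopamine neurons, lies on chromosome 2 (156324432 to 156342348, minus strand). It had 1.80, 1.88 and 2.32 CPM in erianin replicates 1 to 3, against 2.86, 2.13 and 2.32 CPM in DMSO replicates 1 to 3. The groups overlapped. This gave a log2 fold change of -0.28 ± 0.20 (edgeR adjusted p = 0.35), and -0.14 ± 0.23 without DMSO replicate 1 (edgeR adjusted p = 0.62). NR4A2 was called in none of the 19 alternative fits.

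NR4A3, also known as NOR1, lies on chromosome 9 (99821855 to 99866891, plus strand). It had 1.99, 1.65 and 2.12 CPM in erianin replicates 1 to 3, against 0.953, 0.678 and 0.471 CPM in DMSO replicates 1 to 3. Every erianin library was above every DMSO library. The log2 fold change was 1.46 ± 0.29 (edgeR adjusted p = 0.012) and 1.75 ± 0.31 without DMSO replicate 1. NR4A3 was not called without erianin replicate 1 or 3 (adjusted p = 0.061 and 0.059 by edgeR). Of the reads of the 3 NR4A genes, NR4A1 took 88.6% to 90.1% in erianin libraries and 73.9% to 82.5% in DMSO libraries, and NR4A2 took 5.28% to 5.53% with erianin and 13.3% to 19.6% with DMSO. NR4A1 and NR4A2 form dimers with retinoid X receptors, of which RXRB had 68.9 ± 3.36 CPM with erianin and 81.8 ± 27.1 CPM with DMSO (edgeR adjusted p = 0.49). RXRB, named after its values were seen, fell without DMSO replicate 1 (log2 fold change -0.49 ± 0.07, edgeR adjusted p = 1.4e-06). RXRA had too few counts to be tested, at 0.0191 ± 0.0330 CPM with erianin and 0.0397 ± 0.0448 CPM with DMSO, and RXRG was listed at 0 in all libraries.

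**Figure D2:**
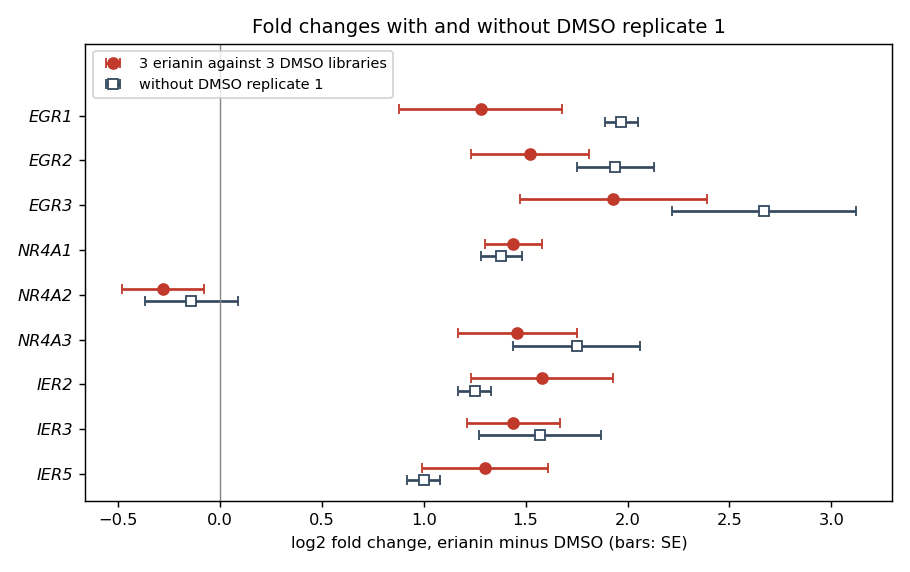
Log2 fold change of erianin over DMSO for each member, with its standard error, from all 6 libraries (filled circles) and without DMSO replicate 1 (open squares). NR4A2 lies at -0.28 and -0.14, and the other members lie between 1.28 and 1.93 with all libraries and between 1.0 and 2.67 without DMSO replicate 1.

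IER2, a small nuclear protein gene on chromosome 19 (13150415 to 13154908, plus strand), had 58.0, 61.1 and 64.1 CPM in erianin replicates 1 to 3, against 9.43, 24.8 and 27.0 CPM in DMSO replicates 1 to 3. DMSO replicate 1 was the lowest library, opposite to its place for the EGR genes. IER2 averaged 61.1 ± 3.05 CPM with erianin and 20.4 ± 9.58 CPM with DMSO (SD, n = 3 each). Its log2 fold change was 1.58 ± 0.35 (edgeR adjusted p = 0.018) and 1.25 ± 0.08 without DMSO replicate 1 (edgeR adjusted p = 3.8e-12). IER2 was not called without any 1 erianin library (adjusted p = 0.064 to 0.077 by edgeR), nor by limma on log2(TPM + 1) or log2(TPM + 0.1) (adjusted p = 0.056 and 0.065).

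IER5, on chromosome 1 (181088712 to 181092899, plus strand), encodes an adaptor known to bring the phosphatase PP2A to the heat shock factor HSF1, which in turn raises IER5. It had 77.4, 82.4 and 93.6 CPM in erianin replicates 1 to 3, against 17.6, 41.3 and 43.7 CPM in DMSO replicates 1 to 3. DMSO replicate 1 was again the lowest library, and the groups did not overlap. This gave a log2 fold change of 1.30 ± 0.31 (edgeR adjusted p = 0.024) and 1.0 ± 0.08 without DMSO replicate 1 (edgeR adjusted p = 1.9e-10). IER5 was not called without any 1 erianin library (adjusted p = 0.073 to 0.098 by edgeR), nor by limma on those TPM scales (adjusted p = 0.074 and 0.080). HSF1 itself fell, to 139.7 ± 13.9 CPM with erianin against 196.6 ± 4.51 CPM with DMSO (log2 fold change -0.49 ± 0.11, edgeR adjusted p = 0.017, and -0.50 ± 0.07 without DMSO replicate 1). HSF1 was not called without erianin replicate 1 or 2 or DMSO replicate 2 (adjusted p up to 0.11 by edgeR), nor on either TPM scale. IER5L, a paralog of IER5, rose, with 1.75 ± 0.182 CPM with erianin and 0.4997 ± 0.128 CPM with DMSO (log2 fold change 1.81 ± 0.26, edgeR adjusted p = 0.0048, and 1.96 ± 0.33 without DMSO replicate 1).

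IER3, also known as IEX-1, is a stress-induced regulator of cell survival on chromosome 6 (30743199 to 30744554, minus strand). It had 73, 58 and 67 raw counts in erianin replicates 1 to 3, against 24, 23 and 19 in DMSO replicates 1 to 3. In CPM this was 1.99, 1.68 and 1.92 with erianin, against 0.788, 0.709 and 0.559 with DMSO. The groups were apart and DMSO replicate 1 lay with its group. The log2 fold change was 1.44 ± 0.23 (edgeR adjusted p = 0.0059) and 1.57 ± 0.30 without DMSO replicate 1. IER3 was called in all 19 alternative fits, with log2 fold changes of 1.15 to 1.64.

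DMSO replicate 1 therefore touched the members unequally. Relative to the mean of the other DMSO libraries it was lower by log2 ratios of -1.46 for IER2 and -1.27 for IER5, and differed by -0.25 for NR4A1, 0.36 for NR4A2, 0.73 for NR4A3 and 0.31 for IER3. The members' longest transcripts had GC contents of 61.7% for IER2, 59.8% for NR4A1, 58.5% for IER3, 55.4% for EGR1, 51.9% for EGR3, 50.9% for EGR2, 49.8% for IER5, 47.9% for NR4A2 and 46.9% for NR4A3. The part of GC content in these differences was not tested for single genes. With offsets for GC content and length the same 7 members were called as with none, and EGR1 had a log2 fold change of 1.13 ± 0.47 (edgeR adjusted p = 0.11).

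Levels can be compared between genes only per transcript length, and the deposited TPM (length-scaled abundance) carries lengths that differ from those of GENCODE 29. The TPM imply a length for NR4A1 that is 10.3 times that of EGR1, against 2.32 times by GENCODE's merged exons. The deposited TPM of DMSO replicate 1 summed to 391827.2, against 635738.7 to 667490.8 in the other libraries, so its TPM are on a different scale and DMSO means and SDs in TPM carry this. On both scales EGR1, IER5, IER2 and NR4A1 were the 4 highest members in erianin-treated cells, in that order. EGR1 had 132.7 ± 9.90 TPM with erianin, against 59.5, 31.9 and 33.2 TPM in DMSO replicates 1, 2 and 3. IER5 had 105.8 ± 10.2 TPM with erianin, against 13.7, 49.4 and 52.3 TPM in DMSO replicates 1, 2 and 3. IER2 had 50.8 ± 2.66 TPM with erianin, against 4.87, 19.7 and 21.5 TPM in DMSO replicates 1, 2 and 3. Per GENCODE kilobase, IER5 (20.2 ± 1.98 CPM per kilobase) and IER2 (19.9 ± 0.994) overlapped among erianin libraries. NR4A1 had 5.36 ± 0.647 TPM with erianin, against 1.09, 2.05 and 1.92 TPM in DMSO replicates 1, 2 and 3.

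Among the lower members, IER3 (3.76 ± 0.288 TPM) stood above EGR2 (2.81 ± 0.207 TPM) in erianin libraries by TPM and below it per GENCODE kilobase (1.37 ± 0.122 for IER3 and 1.59 ± 0.116 CPM per kilobase for EGR2). EGR3, NR4A3 and NR4A2 had 0.666 ± 0.0738, 0.589 ± 0.0679 and 0.551 ± 0.0740 TPM in erianin libraries, and these ranges overlapped. Per GENCODE kilobase the order turned round, with 0.504 ± 0.0698 CPM per kilobase for NR4A2, 0.304 ± 0.0385 for NR4A3 and 0.239 ± 0.0279 for EGR3 in erianin libraries, and NR4A2 lay above both in every library. In DMSO libraries NR4A2 (0.553 ± 0.0614 TPM) stood above NR4A3 (0.173 ± 0.0315) and EGR3 (0.133 ± 0.0674), without overlap in any library.

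**Figure D3:**
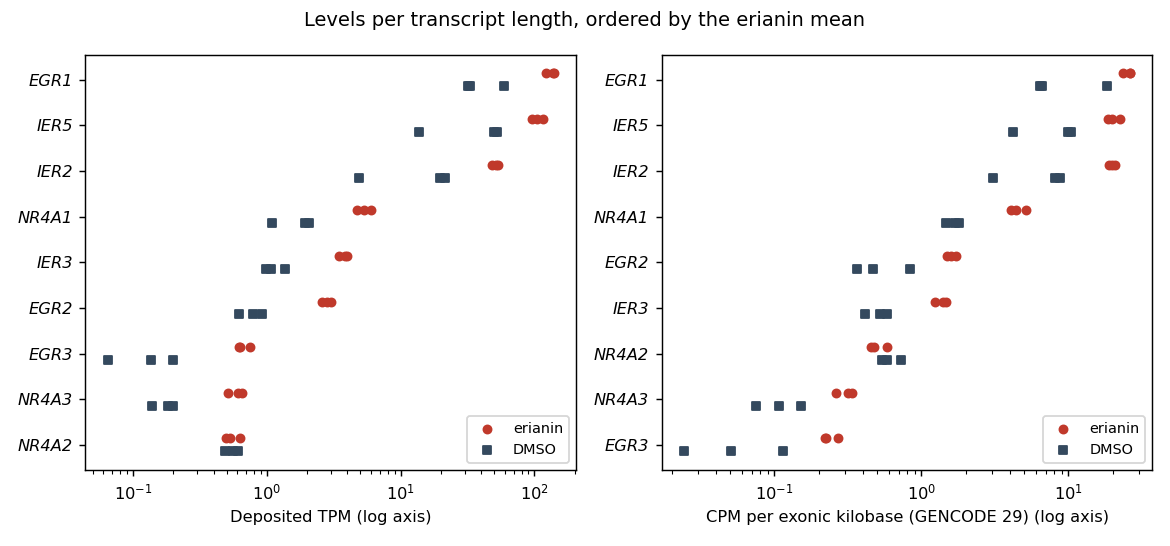
Levels per length of each member in each library, as deposited TPM (left) and as CPM per exonic kilobase of GENCODE 29 (right), both on log axes, with erianin as circles above DMSO as squares and genes ordered by the erianin mean. EGR1, IER5, IER2 and NR4A1 lead on both scales, and the order of the others depends on the length used.

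The members also differed in gene structure. IER3 and IER5 were single exon blocks, EGR1 and IER2 had 2 exon blocks each, and the NR4A genes had 9 to 11. The median genomic span of the members was 5644 bases, against 30388 bases for the 11404 annotated genes tested. In GENCODE 29 the EGR2 gene spans 107905 bases because of long alternative transcripts. How the counting treated strand is not given, so reads of overlapping or antisense genes could be merged with those of a member.

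Of 13 relatives and binding partners of the members, 7 were tested, of which IER5L and NAB2 rose, HSF1 fell and 4 were not called, with a median log2 fold change of -0.12. In the fit that leaves out DMSO replicate 1, 2 rose and 2 fell. Of all genes tested, 11.8% were called higher and 12.3% lower, and without that library 27.8% and 27.4%.

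Upstream of these genes, SRF, which is also an immediate early gene, rose to 391.9 ± 28.3 CPM with erianin, against 261.4 ± 5.34 CPM with DMSO (log2 fold change 0.58 ± 0.10, edgeR adjusted p = 0.0073, and 0.58 ± 0.06 without DMSO replicate 1). Its call ended on the log2(TPM + 1) and log2(TPM + 0.1) scales, where the adjusted p reached 0.057 by limma. Of 4 SRF and ternary complex genes tested, SRF was the single gene called. DESeq2 called 1 gene of the list higher and 2 lower, and the list's median log2 fold change was 0.05. The ternary complex factor genes ELK3 (17.9 ± 0.630 CPM with erianin and 28.6 ± 11.3 CPM with DMSO) and ELK1 (72.0 ± 3.71 CPM with erianin and 86.3 ± 3.52 CPM with DMSO) were not called (edgeR adjusted p = 0.091 and 0.092). Without DMSO replicate 1 the list had 2 higher and 2 lower genes, with ELK3 and ELK1 lower. Of all genes tested, 11.8% were called higher and 12.3% lower, and without that library 27.8% and 27.4%. DESeq2 called 1746 of all 11550 genes higher and 1897 lower. MRTFA and MRTFB were listed at 0, which was not read as absence of expression.

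Of 12 CREB and MEF2 factors and coactivators tested, 1 fell and 11 were not called, with a median log2 fold change of -0.41. MEF2C, a B-cell transcription factor, fell (42.6 ± 3.87 CPM with erianin and 79.3 ± 27.2 CPM with DMSO, log2 fold change -0.90 ± 0.23, edgeR adjusted p = 0.029, and -0.57 ± 0.08 without DMSO replicate 1). Leaving out any 1 erianin library ended this call (adjusted p up to 0.12 by edgeR), as did total counts alone and the log2(TPM + 0.1) scale. CREB1 had 41.8 ± 2.19 CPM with erianin and 56.1 ± 10.8 CPM with DMSO (edgeR adjusted p = 0.079), and MEF2A had 56.8 ± 3.28 CPM with erianin and 83.8 ± 27.6 CPM with DMSO (edgeR adjusted p = 0.10). Without DMSO replicate 1 this list had 1 higher and 4 lower genes and a median of -0.10. Of all genes tested, 11.8% were called higher and 12.3% lower, and without that library 27.8% and 27.4%.

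Of 17 RAS and ERK kinase genes tested, 4 fell and 13 were not called, with a median log2 fold change of 0.02. ARAF, a RAF kinase gene, fell (52.5 ± 1.31 CPM with erianin and 88.9 ± 0.790 CPM with DMSO, log2 fold change -0.76 ± 0.09, edgeR adjusted p = 0.0028, and -0.74 ± 0.07 without DMSO replicate 1). MAP2K5, the kinase upstream of ERK5, fell (23.4 ± 1.85 CPM with erianin and 55.3 ± 12.6 CPM with DMSO, -1.24 ± 0.17, edgeR adjusted p = 0.0043, and -1.02 ± 0.08 without DMSO replicate 1). RPS6KA2, a ribosomal S6 kinase gene, fell to 0.384 ± 0.0939 CPM with erianin, against 1.10 ± 0.296 CPM with DMSO (-1.51 ± 0.32, edgeR adjusted p = 0.016, and -1.67 ± 0.36 without DMSO replicate 1), and was not called without any 1 erianin library (adjusted p up to 0.084 by edgeR). The remaining gene that fell was MAPK3, which encodes the kinase ERK1 and was named after its value was seen. MAPK3 had 26.96 ± 1.25 CPM with erianin and 50.03 ± 14.2 CPM with DMSO (-0.89 ± 0.19, edgeR adjusted p = 0.017, and -0.62 ± 0.08 without DMSO replicate 1), and was not called without any 1 erianin library (adjusted p up to 0.088 by edgeR). The calls of ARAF and RPS6KA2 ended on both TPM scales (adjusted p up to 0.15 by limma). DESeq2 called 0 genes of this list higher and 6 lower, against 1746 higher and 1897 lower of all 11550 genes. Without DMSO replicate 1, 5 were called higher and 7 lower, against 27.8% and 27.4% of all genes. With all libraries, 11.8% of all genes were called higher and 12.3% lower.

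Of 36 other immediate early genes tested among the 43 listed, 14 rose, 4 fell and 18 were not called. Of all genes, 11.8% were called higher and 12.3% lower. The list was written with earlier results of these data known, so these shares are a description and not an independent test. The share that fell is near that of all genes. Their median log2 fold change was 0.34, against 0 for all genes. Every erianin library lay above every DMSO library for 18 of the 36 and below for 5, against 23.6% and 23.1% of all genes. The AP-1 genes FOSB (log2 fold change 3.15 ± 0.16), FOS (2.47 ± 0.21) and JUNB (1.16 ± 0.11) rose in all 19 alternative fits, with 3.33 ± 0.12, 2.68 ± 0.18 and 1.21 ± 0.08 without DMSO replicate 1. JUN rose too (0.78 ± 0.11, edgeR adjusted p = 0.0041, and 0.77 ± 0.09 without DMSO replicate 1). FOSL2 (0.30 ± 0.18) and JUND (-0.51 ± 0.19) were not called (edgeR adjusted p = 0.26 and 0.087). Without DMSO replicate 1 JUND fell (-0.68 ± 0.08, edgeR adjusted p = 3.6e-08). SGK1, a serum- and stress-induced kinase gene, rose to 2.94 ± 0.186 CPM with erianin, against 0.525 ± 0.249 CPM with DMSO (2.49 ± 0.32, edgeR adjusted p = 0.0033, and 2.91 ± 0.30 without DMSO replicate 1). RGS1, a regulator of G protein signalling, fell to 42.6 ± 2.71 CPM with erianin, against 97.3 ± 23.1 CPM with DMSO (-1.19 ± 0.17, edgeR adjusted p = 0.0049, and -0.96 ± 0.07 without DMSO replicate 1). Of the MAP kinase phosphatase genes on the list, DUSP1 (1.16 ± 0.18, edgeR adjusted p = 0.0055), DUSP2 (1.17 ± 0.34, 0.045) and DUSP5 (1.88 ± 0.41, 0.018) rose, DUSP4 was not called (-0.48 ± 0.25, 0.21) and DUSP6 fell. The log2 fold changes of DUSP1, DUSP2 and DUSP5 were 1.04 ± 0.12, 0.85 ± 0.14 and 2.39 ± 0.37 without DMSO replicate 1. Neither DUSP2 nor DUSP5 was called without any 1 erianin library (adjusted p up to 0.16 and 0.074 by edgeR). DUSP2 was also not called without DMSO replicate 2 or on either TPM scale. DUSP5 had 23, 16 and 6 counts in DMSO replicates 1 to 3, and SGK1 had 24, 16 and 10. Both passed the filter on low counts only with the help of erianin libraries. DUSP6 was at 42.2 ± 1.09 CPM with erianin, against 74.7 ± 19.2 CPM with DMSO (-0.82 ± 0.18, edgeR adjusted p = 0.017, and -0.58 ± 0.07 without DMSO replicate 1). DUSP6 was not called without any 1 erianin library (adjusted p up to 0.089 by edgeR). ATF3, a stress-induced gene, had 17.9 ± 1.17 CPM with erianin and 16.1 ± 3.12 CPM with DMSO (edgeR adjusted p = 0.54). The other two that fell were NFKBIA, the gene of an NF-kB inhibitor, and BTG1, an antiproliferative gene (log2 fold changes -0.48 ± 0.13 and -0.61 ± 0.16, edgeR adjusted p = 0.036 and 0.030, and -0.35 ± 0.08 and -0.74 ± 0.07 without DMSO replicate 1). Neither was called by upper-quartile scaling, total counts alone, the replicate block or either TPM scale, nor without any 1 erianin library or DMSO replicate 2 (adjusted p up to 0.52), and BTG1 was not called without DMSO replicate 3. IER5L was on this list too. JUN, FOSL2, JUND, SGK1, RGS1, the DUSP genes, NFKBIA and BTG1 were named after their values were seen. Without DMSO replicate 1, 22 of 37 rose and 6 fell, against 27.8% of all genes called higher and 27.4% lower in that fit.

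**Figure D4:**
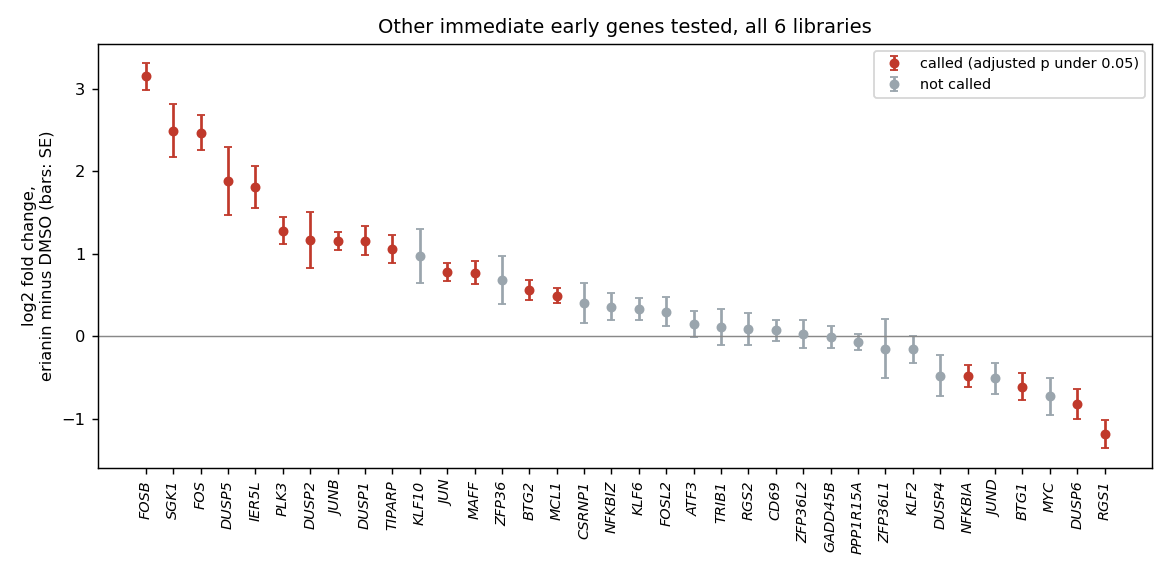
Log2 fold change of erianin over DMSO, with its standard error, for the 36 other immediate early genes tested, ordered by value, with genes called at an adjusted p below 0.05 in red. The values run from 3.15 for FOSB to -1.19 for RGS1, with 14 genes called higher and 4 called lower.

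Among genes that EGR and NR4A factors are known to act on in lymphocytes, partly from mouse work, 10 of 14 were tested, of which 3 rose, 1 fell and 6 were not called, with a median log2 fold change of -0.05. BATF, an AP-1 family gene, rose (5.20 ± 0.618 CPM with erianin and 1.89 ± 0.390 CPM with DMSO, log2 fold change 1.46 ± 0.20, edgeR adjusted p = 0.0042, and 1.36 ± 0.20 without DMSO replicate 1). CBLB, a ubiquitin ligase gene that EGR2 and EGR3 raise in mouse T cells, fell (31.01 ± 0.0821 CPM with erianin and 90.98 ± 42.0 CPM with DMSO, -1.55 ± 0.29, edgeR adjusted p = 0.011, and -1.09 ± 0.07 without DMSO replicate 1). CBLB was not called without any 1 erianin library (adjusted p up to 0.060 by edgeR). NAB2, described above, was on this list too. Without DMSO replicate 1, 4 of the 10 rose and 1 fell. Of all genes tested, 11.8% were called higher and 12.3% lower, and without that library 27.8% and 27.4%.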

How the data were processed

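Read counts per gene, as whole numbers, and a table of TPM were deposited by the authors. Tools named in the submitters' processing notes, without the step each served, are STAR 2.7.10, fastp 0.23.2, StringTie 2.2.1 and featureCounts 2.0.1, with build GRCh38. Annotation, strand and read pair handling: not given in the sources used here. Of the 65807 entries, 61 repeats of a symbol were left out. The counts were tested in R 4.3.3 with edgeR 4.0.16 (quasi-likelihood F test, TMM scaling, filterByExpr, treatment as the single term), with Benjamini-Hochberg adjustment over all genes tested. The SE is |log2 fold change| divided by the root of F. CPM and TPM are mean ± SD (n = 3). The fit was tested on simulated counts. The floor of 3 counts covers counting error only, whereas the SE also carries the scatter between libraries. Alternatives used DESeq2 1.42.0, limma 3.58.1 (voom with quality weights, and log2(TPM + 1) or log2(TPM + 0.1)), DESeq2 or upper-quartile size factors, total counts, other filters, a replicate block, leaving out single libraries, and GC content and length offsets (mgcv 1.9.3). Coordinates and lengths came from GENCODE 29 by Ensembl identifier, and 38264 symbols matched. Members and lists were chosen with earlier results of these data known. Named genes were all members, the 3 genes with the smallest p of each other list, 9 regulators and early genes taken by name, and the gene nearest in profile to each member. Genes outside this rule are said to have been named after their values were seen. Python 3.11.15 with numpy 2.4.6, pandas 2.3.3 and matplotlib 3.10.9 made the plots.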

Additional observations from a re-analysis of the deposited data

How the results depend on the processing

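Across 19 alternative fits no member changed direction, and NR4A1 and IER3 were called in each. All genes called numbered 2791, and 745 to 6505 with 1 library left out, 7408 by limma-voom with quality weights, 1670 on log2(TPM + 1), 1508 on log2(TPM + 0.1), and 7255 with GC content and length offsets and DMSO replicate 1 left out. Members called higher numbered 7, and 2 to 8 with 1 library left out (2 without erianin replicate 1 or 3, 3 without erianin replicate 2), and members called lower numbered 0 in every fit. Other immediate early genes called higher numbered 14, and 10 to 22 with 1 library left out, 22 by limma-voom and 22 with the offsets and DMSO replicate 1 left out. Those called lower numbered 4, and 1 to 6 with 1 library left out, 2 each by upper-quartile scaling, total counts alone, both TPM scales and the replicate block, and 7 each by limma-voom and by the offsets without DMSO replicate 1. The cause was not tested. With the replicate block, 2296 genes were called and 8 members rose, EGR1 among them (log2 fold change 1.47, edgeR adjusted p = 0.024). Same-numbered libraries had correlations of 0.167, -0.143 and 0.231 in their deviations, and 2 of 6 correlated best with their own number, so the numbers were not taken as pairs. EGR3, NR4A2, NR4A3 and IER3 rest on fewer than 100 counts a library, which limits the precision of their folds. EGR2 was under 100 counts in its DMSO libraries too, with 94, 56 and 46 in replicates 1 to 3.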

Other observations

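Genes that degrade AU-rich mRNAs, the class to which many immediate early transcripts belong, were also counted. Of 16 tested, 3 fell and 13 were not called, with a median log2 fold change of -0.08. Over all genes tested, 11.8% were called higher and 12.3% lower. DESeq2 called 0 of the 16 higher and 4 lower, against 1746 higher and 1897 lower of all 11550 genes. Limma-voom with quality weights called 7 higher and 6 lower, against 3699 higher and 3709 lower of all 11550 genes. CNOT6L, a deadenylase subunit gene, fell to 21.6 ± 2.51 CPM with erianin, against 40.97 ± 1.69 CPM with DMSO (log2 fold change -0.92 ± 0.12, edgeR adjusted p = 0.0035, and -0.88 ± 0.09 without DMSO replicate 1), and was not called on either TPM scale (adjusted p up to 0.077 by limma). XRN1, the cytoplasmic 5′ to 3′ exonuclease gene, fell (-0.82 ± 0.18, edgeR adjusted p = 0.019, and -0.58 ± 0.08 without DMSO replicate 1), as did the CCR4-NOT scaffold gene CNOT1 (-0.71 ± 0.19, edgeR adjusted p = 0.033, and -0.45 ± 0.06 without DMSO replicate 1). XRN1 and CNOT1 were not called without any 1 erianin library (adjusted p up to 0.089 and 0.13 by edgeR), nor was CNOT1 with total counts alone or on either TPM scale. Without DMSO replicate 1, 5 of the 16 rose and 5 fell, against 27.8% of all genes called higher and 27.4% lower.

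For each member, the tested gene with the closest centred log2 CPM profile over the 6 libraries was found by root mean square difference. The closest to EGR2 was the antiproliferative gene TOB1 (0.0785 on the log2 scale), which had 23.2 ± 0.983 CPM with erianin and 7.85 ± 3.31 CPM with DMSO. The closest to EGR3 was the ERK phosphatase gene DUSP5 (0.159), with 1.74 ± 0.0914 CPM with erianin and 0.475 ± 0.290 CPM with DMSO. FBXL2 was closest to EGR1 (0.119), GLDC to NR4A1 (0.0378), BIN3 to NR4A2 (0.0540), HELZ2 to IER2 (0.0603) and SAPCD2 to IER5 (0.0563). SFN, which encodes 14-3-3 sigma, was closest to both NR4A3 (0.138) and IER3 (0.104), at 0.367 ± 0.0183 CPM with erianin and 0.105 ± 0.0398 CPM with DMSO. That DMSO level lay close to the floor of 3 counts and under the filter's level of 0.293 CPM. SFN thus passed the filter on low counts through its erianin libraries. The call of SFN (edgeR adjusted p = 0.022) ended in 8 of 18 alternative fits.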
